A study of Macaca fascicularis with 6 samples.

Results

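Cycling cells of the cartilage organoids before transplantation were picked out by their reads of proliferation genes. Among the cells of pre-transplant cyiPS-Cart, a cell was taken when it held at least 1 read of at least 3 of the genes *MKI67*, *TOP2A*, *CDK1*, *CCNB1*, *BIRC5*, *UBE2C*, *CENPF*, *TPX2* and *MAD2L1*, here called the rule genes. *BIRC5* is not among the genes of the matrix used, so 8 of the 9 genes were read. The rule took 322 of the 3527 pre-transplant cells (9.13%, 95% exact binomial interval 8.2 to 10.1%), out of 7007 cells of the whole series, and left 3205 other cells for comparison. The rule was made of measured reads of these same cells, so all ratios between the cells it took and the other cells are descriptions, and none was tested.

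The organoids were made from 1 cynomolgus monkey iPS cell line, which carries EGFP under a constitutive promoter, and were grown as particles in a chondrogenic medium with BMP2, TGFβ1 and GDF5. The undifferentiated cyiPSC of the same line, with the same EGFP reporter, were sequenced in 1 library with the organoids. The other samples came from knees of monkeys aged 3 to 4 years, harvested 17 weeks after surgery, and were post-transplant cyiPS-Cart (the organoids after grafting into a chondral defect), cyAC (intact articular cartilage) and cyFT (fibrous tissue from a defect left empty). The labels give these samples as wild type, although the grafted organoids were made from the EGFP line. Each condition was taken as 1 sample, so no difference has a replicate check, and intervals cover counting error only.

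A dividing cell copies its DNA in S phase, condenses and separates the chromosomes in mitosis, and then splits in cytokinesis. Each stage has its own set of transcripts, with helicase subunits and nucleotide enzymes made for replication, and spindle motors, kinetochore proteins and mitotic cyclins made later. Chondrocytes divide in the growth plate and rarely in adult articular cartilage, and progenitors that form cartilage can divide while they lay down matrix.

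The number of rule genes split the cells unevenly. No rule gene was read in 1330 cells, 1 in 1285, 2 in 590, 3 in 196, 4 in 47, and 5 or more in 79 cells (2.24%, interval 1.78 to 2.78%), of which 24 cells held all 8 genes. Cells with exactly 3 genes therefore made up 196 of the 322, and cell numbers were lowest at 6 genes (15 cells) and higher again at 8. Depth moved with the count. The cells with no rule gene had a median of 45875.5 reads, the cells with exactly 2 had 81190.5, the cells with exactly 3 had 100490, and the cells with 5 or more had 81375. Across all cells taken the median was 98936 reads, against 56195 in the other cells, and 101 of the 322 lay above the 90th percentile of pre-transplant cells, 121061 reads.

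When every cell was thinned at random to 30967 reads, which left out 353 shallower cells, 184 of 3174 cells met the rule (5.8%, interval 5.01 to 6.67%). Of the 313 cells taken before that were deep enough, 58.8% were still taken. The loss lay mostly at the edge of the rule, where 73 of 194 cells with exactly 3 genes stayed, whereas 71 of 72 cells with 5 or more genes stayed. At equal reads 62 cells (1.95%, interval 1.5 to 2.5%) held 5 or more of the genes. The plot of cell numbers and reads by rule genes shows both features.

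**Figure D1:**
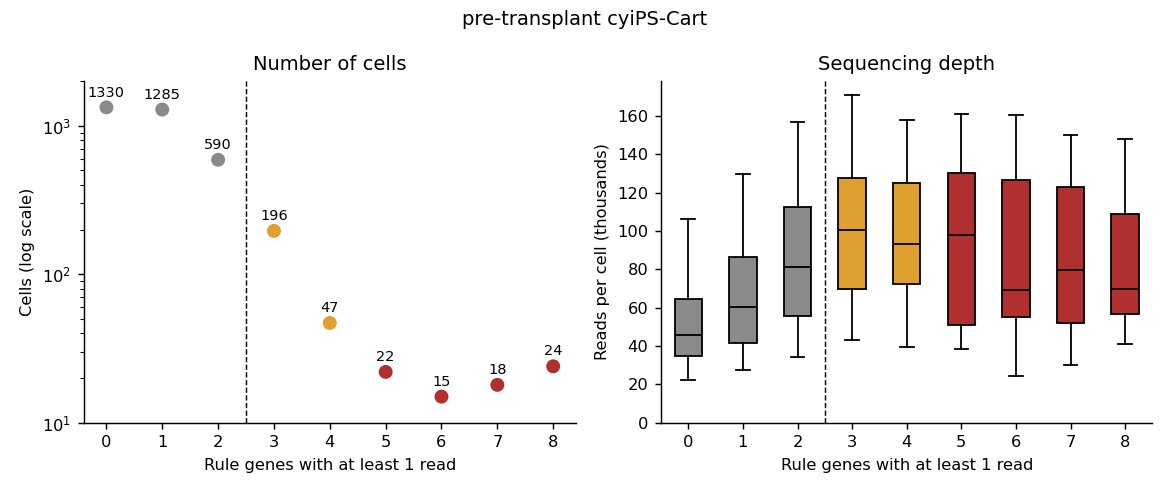
Left, number of pre-transplant cyiPS-Cart cells (log axis) by the number of rule genes with at least 1 read. Right, reads per cell, with the box at the quartiles, the line at the median and whiskers at the 5th and 95th percentiles. The dashed line marks the rule; 196 cells sit just inside it with 3 genes and 590 just outside with 2, and the median depth is highest at 3 genes.

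The rule genes themselves were not alike. *MKI67*, the nuclear antigen used as the standard proliferation marker, *TPX2*, a spindle assembly factor, and *MAD2L1*, a spindle checkpoint protein, had counts down to 1 read, and 643 of 793, 1103 of 1235 and 683 of 987 cells with reads of them held 1 to 5 reads. The lowest count above 0 was 6 to 8 reads for the other 5 genes, among them *TOP2A*, the topoisomerase that untangles replicated DNA, and *CDK1*, the kinase that drives entry into mitosis. Of the 322 cells, 79 held only *MKI67*, *TPX2* and *MAD2L1*, 123 held 1 of the other 5 genes and 120 held at least 2 of them. *TPX2* reads were also found in 105 of 320 cyAC cells and *TOP2A* reads in 8 of them, at a median depth of 29699 reads.

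The levels of the marker genes just outside and just inside the rule, and further in, are given here as counts per 1000000 reads (CPM) of the summed cells. *TOP2A* stood at 8.71 CPM in cells with exactly 2 rule genes, 28.8 CPM with exactly 3 and 881 CPM with 5 or more. *CDK1* stood at 8.67, 16.8 and 483 CPM, *MKI67* at 17.9, 27.1 and 338 CPM, and *MAD2L1* at 31, 50.4 and 177 CPM in the same order. In cyiPSC, which divide fast, the levels were 722 CPM for *TOP2A*, 257 for *CDK1*, 238 for *MKI67* and 373 for *MAD2L1*. These are genes the rule used, so the order of the levels was fixed by the choice of cells and is a description.

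The label was therefore checked with cell cycle genes that the rule did not use. The summed level of 35 genes of the mitotic spindle and cytokinesis was 313, 326 and 353 CPM in cells with 0, 1 and 2 rule genes, 470 with 3, 784 with 4, 2337 with 5 or 6 and 6971 with 7 or 8. Kinetochore and checkpoint genes followed with 295, 328, 330, 488, 847, 1799 and 3967 CPM, and cells with 3 rule genes again lay nearer to the cells outside the rule than to those with more. Genes of DNA replication and S phase stood at 1100, 1167, 1238, 1638, 3228, 6870 and 4636 CPM, which peaked at 5 or 6 rule genes and not at 7 or 8. In the cells with exactly 3 rule genes most of these genes still had a log2 ratio above 0 over the cells outside the rule, 29 of 35 spindle, 36 of 36 kinetochore and 55 of 62 replication genes, against 45.1% of all genes, so most of these genes stood somewhat higher in these cells too. With single cells at equal reads, the median spindle level was 258 CPM in the other cells, 388 in cells with exactly 3 rule genes and 5441 in cells with 5 or more. The name cycling therefore rests mainly on the 79 cells with 5 or more rule genes. This stricter set was chosen after these values were seen. Values for it are given beside those for all 322 cells for the lists and for part of the genes. A value given for the 322 cells alone averages unlike cells. *CCNB2*, for one, stood at 6.32 CPM with exactly 3 rule genes, 154 CPM in the 79 cells and 5.07 CPM in the other cells. How much of the content of the cells with exactly 3 genes comes from their depth was not tested beyond the thinning.

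**Figure D2:**
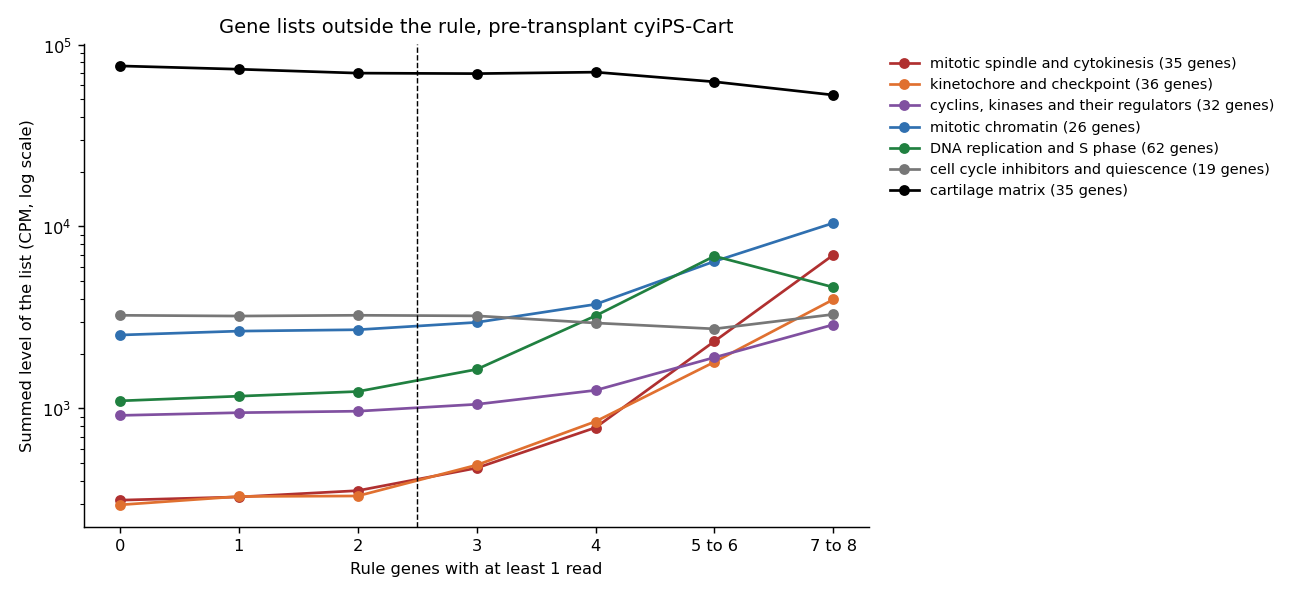
Summed level of 7 gene lists in CPM (log axis) in pre-transplant cells grouped by the number of rule genes with reads; the rule genes are in none of the lists and the dashed line marks the rule. The 4 mitotic and cyclin lists are highest at 7 to 8 rule genes, replication genes peak at 5 to 6, cell cycle inhibitors stay between 2736 and 3286 CPM, and cartilage matrix is lowest at 7 to 8.

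Genes outside the rule were compared as log2 ratios of summed CPM + 1 between the 322 cells and the 3205 other cells. Of 5698 genes that reached 20 CPM on either side and were detected in 25% or more of its cells, 99 (1.74%) were at least 2-fold higher in the 322 cells both in all reads and in thinned reads, and 0 (0%) were 2-fold lower. The median log2 ratio over all genes measured was 0.0134. Of the 99 genes, 72 were in lists of cell cycle genes. The spindle, kinetochore, cyclin, chromatin and replication lists held 23, 18, 17, 22 and 40 of the 5698 genes measured. Of the 99, 93 were also at least 2-fold higher in cyiPSC than in the other organoid cells, where 25.8% of the genes measured were. Both ratios were taken over the same other cells, so a gene low in those cells is favoured in both. The 93 are therefore a description. In the 79 cells with 5 or more rule genes, 348 of 5913 genes (5.89%) were higher by the same measure and 56 (0.947%) were lower, and the 348 held all 99 genes of the wider comparison. Of the 348, 139 were in the lists of cell cycle genes and 209 were not. In the 196 cells with exactly 3 rule genes, 3 of 5597 genes (0.0536%) were higher, *STMN1*, *MCM2* and *MCM5*, and 1 (0.0179%) was lower, *SFRP2*, named here after its value was seen. *PRC1*, *DEPDC1* and *DIAPH3* stood at 9.84, 13.5 and 15.3 CPM in these cells, under the 20 CPM needed, and at 2.69, 3.61 and 3.57 CPM in the other cells. Low genes passed the filter through the cells that hold them, which was the case for 82 of the 99 higher genes, so the counts of higher genes within the lists depend on it. For this reason the direction of the listed genes is given without a filter as well.

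**Figure D3:**
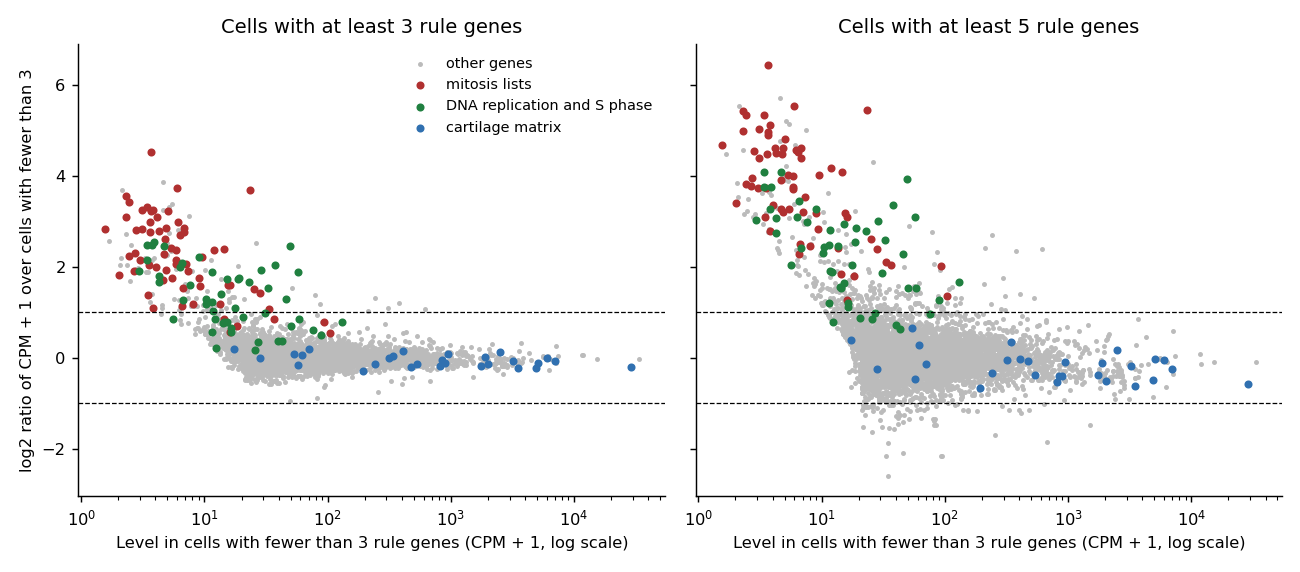
Log2 ratio of CPM + 1 over the other pre-transplant cells against the level in the other cells (CPM + 1, log axis), for genes measured in the 322 cells with at least 3 rule genes (left) and the 79 cells with at least 5 (right); dashed lines mark 2-fold. Mitosis genes (spindle and kinetochore lists) lie highest at low levels, *PRC1* at 4.52 and 6.44, and cartilage matrix genes lie between the dashed lines in both panels.

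Genes of the mitotic spindle and cytokinesis were higher almost throughout. All but 1 of the 35 listed genes had a ratio above 0 in the 322 cells and all 35 in the 79 cells, against 47.4% and 42.4% of all 13942 genes outside the rule. The filter let 23 of them through, of which 19 were 2-fold higher in the 322 cells beside 1.74% of all genes measured, and 32 in the 79 cells, of which 31 were higher beside 5.89%. All of the 19 and 29 of the 31 passed the filter only through the cells in which they were high, so these counts add nothing to the directions.

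*PRC1*, which bundles the microtubules of the central spindle, had the highest ratio of all genes. Its level was 83.6 CPM (counting interval 80.5 to 86.9) in the 322 cells and 2.69 CPM (2.47 to 2.92) in the other cells, a log2 ratio of 4.52 and of 4.58 in thinned reads, and it reached 319 CPM in the 79 cells. In single cells at equal reads *PRC1* ranged from 0 to 1292 CPM among the 72 cells with 5 or more rule genes, with a median of 242, and 50 of them (69.4%) lay above the 99th percentile of the cells without a rule gene. Among cells with exactly 3 rule genes 8 of 194 (4.12%) did so, so *PRC1* set most of the stricter cells apart and few of those at the edge.

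*STMN1*, which destabilises microtubules, was the most abundant spindle gene, at 301 CPM (295 to 307) against 22.5 CPM (21.9 to 23.2), a log2 ratio of 3.68. It stood at 64.2 CPM in cells with exactly 3 rule genes, 601 CPM with 5 or 6 and 1446 CPM with 7 or 8, and at 1124 CPM in cyiPSC. At equal reads it ranged from 0 to 4876 CPM among the cells with 5 or more rule genes, with quartiles of 355 and 1655 and a median of 1211, and 55 of 72 cells (76.4%) lay above the 99th percentile of cells without a rule gene. Its median was 0 in both the cells with exactly 3 rule genes and the cells with none.

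*ANLN*, an anillin that organises the cleavage furrow, stood at 78 CPM against 5.01 (log2 ratio 3.72) and at 275 CPM in the 79 cells. *DEPDC1*, a cell cycle regulated gene outside the lists, stood at 66.3 against 3.61 CPM (3.87), and *DIAPH3*, a formin that nucleates actin filaments, at 42.1 against 3.57 CPM (3.24). The motors of the spindle were alike in direction. *KIF20A*, needed for cytokinesis, had a log2 ratio of 3.24, *KIF15* of 3.09, the minus-end motor *KIFC1* of 2.99, *KIF23* of the centralspindlin complex of 2.36 and *KIF11*, which pushes spindle poles apart, of 1.59. *ASPM*, a spindle pole protein, was read in too few of the 322 cells for the filter and stood at 137 CPM in the 79 cells, against 2.41 CPM in the other cells.

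The tubulins that build the spindle had smaller ratios at higher levels. *TUBB4B*, of the spindle list, stood at 159 CPM against 91.6 (log2 ratio 0.79) and at 375 CPM (2.02) in the 79 cells. *TUBB* and *TUBA1A*, outside the lists and named after their values were seen, stood at 595 against 239 CPM (1.31) and at 1291 against 610 CPM (1.08). Tubulin genes have near-identical copies that share reads, so the split among them is uncertain. Among the 27 higher genes outside the lists of cell cycle genes, named after their values were seen, were *EZH2*, a histone methyltransferase, at 27.7 against 9.46 CPM (1.46), and *MMP3*, a matrix-degrading protease, at 658 against 309 CPM (1.09). *MMP3* stood at 1104 CPM with 5 or 6 rule genes and 478 CPM with 7 or 8, so it did not follow the mitotic genes.

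Kinetochore and checkpoint genes attach chromosomes to the spindle and hold mitosis until all are attached. All 36 listed genes had a ratio above 0 in the 322 cells and in the 79 cells. After the filter 16 of 18 were 2-fold higher in the 322 cells (1.74% of all genes) and 31 of 31 in the 79 cells (5.89% of all genes), but 13 of the 16 and 27 of the 31 passed only through the cells in which they were high. *ZWINT*, which holds the checkpoint complex at kinetochores, stood at 46.6 against 4.05 CPM (3.23), and *SPC25* and *NUF2*, of the complex that grips microtubules, had ratios of 3.22 and 2.99. *PTTG1*, the securin that guards sister chromatid cohesion, stood at 47.8 against 5.78 CPM (2.85), and *SGO2*, a shugoshin, and *CENPN*, a centromere protein, had ratios of 2.82 and 2.77. *NDC80* and *CDC20*, the activator of the anaphase-promoting complex, passed the filter in the 79 cells only, at 97.7 CPM (5.34) and 130 CPM (5.11).

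Among cyclins, kinases and their regulators, ratios were above 0 for 31 of 32 listed genes. Of those measured, 6 of 17 were 2-fold higher in the 322 cells (1.74% of all genes) and 16 of 23 in the 79 cells (5.89% of all genes), of which 6 and 13 passed the filter only through these cells. *CCNA2*, the cyclin of S phase and G2, stood at 63.3 against 6.45 CPM (3.11), *CCNB2*, a mitotic cyclin, at 41.7 against 5.07 CPM (2.81), *MYBL2*, a transcription factor of late cell cycle genes, at 33.3 against 4.15 CPM (2.73), and *PLK1*, a mitotic kinase, at 21.6 against 3.82 CPM (2.23). *CCND2*, a D-type cyclin of G1 and the most abundant gene of the list over all pre-transplant cells, stood at 288 against 297 CPM (-0.04) and at 252 CPM in the 79 cells. *CCND1* stood at 109 against 80.3 CPM (0.43) and at 154 CPM in the 79 cells (0.93), and its partner *CDK4* at 153 against 141 CPM (0.12). *CCND3* was 2-fold higher in the 79 cells (73.1 against 23.7 CPM, 1.58), so the D-type cyclins differed among themselves, with ratios below those of *CCNA2* and *CCNB2*.

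Chromatin genes of mitosis are expressed in many resting cells too, and their ratios were smaller than those of the spindle and kinetochore genes. Ratios were above 0 for 25 of 26 listed genes, and 8 of 22 measured were 2-fold higher in the 322 cells (1.74% of all genes) and 18 of 24 in the 79 cells (5.89% of all genes), of which 6 and 9 passed the filter only through these cells. *H2AZ1*, a histone variant, was the most abundant gene of the cell cycle lists among those named, at 876 CPM (866 to 886) against 380 CPM (378 to 383), a ratio of 1.20, and at 1942 CPM in the 79 cells. At equal reads its median was 323 CPM in cells without a rule gene, 388 in cells with exactly 3 and 2164 in cells with 5 or more, where it was read in every cell and ranged from 194 to 4908 CPM. *HMGB2*, a chromatin protein of dividing cells, stood at 149 against 25.2 CPM (2.52) and *NCAPG*, a condensin subunit, at 55.9 against 4.45 CPM (3.38). The condensin core genes *SMC4* and *SMC2* had ratios of 1.54 and 2.02.

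Genes of DNA replication were higher by smaller ratios than the spindle and kinetochore genes. Their median log2 ratio over those measured was 1.20 in the 322 cells, against 2.39 and 2.18. The chromatin and cyclin lists had lower medians, 0.71 and 0.70. Summed over the list, replication genes stood at 1162 CPM in the other cells, against 328 CPM for spindle and 317 CPM for kinetochore genes. All 62 listed genes had a ratio above 0 in the 322 cells and 61 of them in the 79 cells, against 47.4% and 42.4% of all genes. After the filter 23 of 40 were 2-fold higher in the 322 cells (1.74% of all genes) and 43 of 49 in the 79 cells (5.89% of all genes), of which 17 and 32 passed only through these cells. *RRM2*, the regulated subunit of the enzyme that makes deoxynucleotides, was the highest, at 269 CPM (263 to 275) against 48.4 CPM (47.5 to 49.4), a ratio of 2.45, and at 752 CPM in the 79 cells. *PCNA*, the sliding clamp of the replication fork, stood at 209 against 56 CPM (1.88), and *TYMS*, which makes thymidylate, at 153 against 36.7 CPM (2.03).

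Subunits of the replicative helicase were higher together. *MCM2* stood at 61 against 17.7 CPM (1.73), *MCM3* at 42 against 10.6 (1.89), *MCM4* at 63.3 against 18.1 (1.75), *MCM5* at 40.9 against 8.07 (2.21) and *MCM7* at 72.6 against 22.1 (1.67). *MCM6* stood at 104 against 57.2 CPM (0.85) and was 2-fold higher in the 79 cells only, at 168 CPM (1.54). In single cells the helicase genes were patchy. At equal reads *MCM5* lay above the 99th percentile of cells without a rule gene in 12 of the 72 cells with 5 or more rule genes (16.7%), *PCNA* in 27 (37.5%) and *RRM2* in 31 (43.1%).

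Genes that hold cells out of the cycle had reads in these cells too. Ratios were above 0 for 7 of 19 listed genes in both the 322 and the 79 cells. Of 18 measured, 1 was 2-fold higher in the 322 cells (1.74% of all genes), and the median log2 ratio was -0.08 beside 0.0134 over all genes. That 1 gene passed the filter only through these cells. *CDKN1A*, the p21 inhibitor of cyclin-dependent kinases, was among the most abundant of them, at 637 CPM (629 to 646) against 691 (687 to 694), a ratio of -0.12, and at 537 CPM in the 79 cells (-0.36). At equal reads its median was 517 CPM in cells with 5 or more rule genes and 581 CPM both in cells with exactly 3 and in cells with none. *KLF4*, a transcription factor of resting cells, stood at 706 against 739 CPM, and the antiproliferative gene *BTG1* at 581 against 616.

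The exception within that list was *CDKN2C*, the p18 inhibitor of the kinases that D-type cyclins activate. It stood at 50.5 CPM (48.1 to 53) against 4.15 (3.88 to 4.44), a ratio of 3.32, and its level was 6.27 CPM with exactly 3 rule genes, 75.7 with 5 or 6 and 303 with 7 or 8. It was read in 68.4% of the 79 cells and 4.8% of the other cells. In cyiPSC, of which 94.4% held 5 or more rule genes, *CDKN2C* stood at 0.426 CPM. In cyFT it stood at 660 CPM in the 5 cells taken by the same rule and at 29.9 CPM in the other cells. *CDKN1C*, the p57 inhibitor, was 2-fold lower in the 79 cells, at 12.2 against 37.9 CPM (-1.56).

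Reads of the matrix genes of chondrocytes were found in most of the 322 cells and of the stricter 79. *COL2A1*, the type II collagen of cartilage, had reads in 91% of the 322 cells (interval 87.3 to 93.9%) and 92.6% of the other cells (91.7 to 93.5%), and *ACAN*, the large proteoglycan, in 98.1% and 99.6%. In the 79 cells the shares were 86.1% for *COL2A1* and 93.7% for *ACAN*. Reads of both were found in 293 of the 322 and 68 of the 79 cells. Of 27 measured genes of the cartilage matrix list, 0 were 2-fold different, where 1.74% of all genes were higher and 0% lower, and the median log2 ratio was -0.08. In the 79 cells 0 of 28 were past 2-fold, where 5.89% of all genes were higher and 0.947% lower. The median there was -0.21, and 7 of 35 listed genes had a ratio above 0 against 42.4% of all genes.

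The summed levels of the main matrix genes were lower in the 79 cells by less than 2-fold, and the medians over single cells differed more for *COL2A1*. *COL2A1* stood at 29099 CPM in the other cells, 25130 CPM in the 322 cells (-0.21) and 19424 CPM in the 79 cells (-0.58), and *ACAN* at 3492, 3000 and 2268 CPM (-0.22 and -0.62). Within the 79 cells *COL2A1* reads were found in 78.6% of the cells with 7 or 8 rule genes (interval 63.2 to 89.7%) and in 94.6% of those with 5 or 6 (81.8 to 99.3%). At equal reads the median of *COL2A1* was 13531 CPM in cells with 5 or more rule genes, with a range from 0 to 60193, and 32228 CPM in cells with none. The quartiles were 5901 and 28764 CPM in the former and 18116 and 43595 CPM in the latter, so the groups overlapped. *FMOD*, a collagen-binding proteoglycan, and *UCMA*, a cartilage matrix protein, had ratios of -0.05 and -0.03 in the 79 cells, beside a median of 0.0497 over all genes measured, so the matrix genes differed among themselves.

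Growth plate and superficial zone genes were split in direction, with ratios above 0 for 13 of 25 and 11 of 16 listed genes in the 322 cells and 11 of 25 and 8 of 16 in the 79. In both lists 0 of 10 measured genes were 2-fold different in the 322 cells, which at 1.74% of all genes says little of so few. *SPP1*, osteopontin, stood at 639 against 432 CPM (0.56) in the 322 cells and at 268 CPM (-0.69) in the 79, and at equal reads its median was 0 in cells with none, exactly 3 and 5 or more rule genes. Single cells reached 46017 CPM among those with exactly 3 rule genes and 4327 CPM among those with 5 or more, so its sums rested on few cells. *FGFR3*, the receptor of proliferating growth plate chondrocytes, stood at 87.8 against 84.2 CPM. *PRG4*, lubricin of the joint surface, stood at 887 against 662 CPM (0.42) and at 1171 CPM in the 79 cells (0.82, and 1.08 in thinned reads).

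Genes of fibrous tissue and perichondrium had ratios above 0 for 17 of 29 listed genes in the 322 cells and 13 of 29 in the 79. Of 27 measured, 2 were 2-fold higher in the 322 cells (1.74% of all genes), and 4 were higher (5.89%) and 1 lower (0.947%) in the 79. Of the higher genes, 1 of the 2 and 2 of the 4 passed the filter only through the cells in which they were high. *THY1*, a surface protein of mesenchymal progenitors and fibroblasts, stood at 203 CPM (198 to 208) against 77.6 (76.4 to 78.8), a ratio of 1.37, and at 535 CPM in the 79 cells (2.77). Its level was 94.9 CPM with exactly 3 rule genes and 864 CPM with 7 or 8, and at equal reads it lay above the 99th percentile of cells without a rule gene in 21 of 72 cells (29.2%). *LGALS1*, galectin-1, stood at 35.7 against 14.8 CPM (1.22) and at 77.8 CPM in the 79 cells. *ACTA2*, smooth muscle actin, and *S100A4* were higher in the 79 cells (1.33 and 1.40) and *TAGLN*, another smooth muscle gene, was lower (-1.16). The sum of *S100A4* rested on part of these cells, since at equal reads its median was 0 and its upper quartile 137 CPM among the 72 cells, with a highest value of 4747 CPM. The abundant matrix genes *COL3A1*, *SPARC* and *FN1* had ratios of 0.07, -0.09 and -0.15 in the 79 cells.

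Organoid cells with and without reads of *COL1A1*, the type I collagen of fibrous tissue, had unlike shares of cells by the rule. Reads of *COL1A1* were found in 37% of the 322 cells (interval 31.7 to 42.5%), 41.8% of the 79 cells (30.8 to 53.4%) and 25.2% of the other cells (23.7 to 26.8%). Turned around, 12.8% of 928 cells with *COL1A1* reads (10.7 to 15.1%) and 7.81% of 2599 cells without (6.81 to 8.91%) met the rule, and 3.56% (2.46 to 4.96%) and 1.77% (1.3 to 2.35%) held 5 or more rule genes. Cells with *COL1A1* reads were deeper, with a median of 68610.5 reads against 56195. At equal reads the shares with 5 or more rule genes were 3.21% (2.15 to 4.61%) and 1.48% (1.02 to 2.06%). For *PRG4* 12.8% of cells with reads (10.2 to 15.7%) and 8.36% of cells without (7.39 to 9.43%) met the rule, and at equal reads 2.65% (1.49 to 4.34%) and 1.8% (1.33 to 2.39%) held 5 or more rule genes. For *COL2A1* the order was the other way, with 1.76% of cells with reads (1.32 to 2.31%) and 4.42% of 226 cells without (2.14 to 7.99%) at equal reads. Cells of 1 sample are not replicates, so these intervals describe counting error and test no difference. Among cells with reads, the lowest count was 277 reads for *COL1A1*, 22 for *PRG4* and 145 for *COL2A1*. Cells without reads may therefore include cells whose lower counts were removed by the authors' background correction. A fixed floor is harder to reach in shallow cells, and the rule also took deeper cells. Thinning came after these floors and does not remove them, and their effect on these shares was not tested.

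Hypoxia and early response genes had ratios above 0 for 16 of 30 and 8 of 23 listed genes in the 322 cells, with median log2 ratios of 0.07 and -0.06 over those measured and 0 of 20 and 0 of 18 past 2-fold, where 1.74% of all genes were. In the 79 cells *MXI1*, a repressor that opposes MYC, and *NDRG1*, a stress-induced gene, were lower (-1.88 and -1.02), and the glycolytic enzyme *ENO1* stood at 1850 against 1230 CPM (0.59). *EGR2*, an early response transcription factor, was higher there (1.12) through few cells, with a median and an upper quartile of 0 at equal reads and 3 of 72 cells above 449.5 CPM, and *HSPA5*, the chaperone of the endoplasmic reticulum, stood at 1357 against 2350 CPM (-0.79).

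The genes lowest in the 79 cells came from outside most of the lists. *CADPS*, a gene of vesicle release, had the lowest ratio, at 4.7 against 33.4 CPM (-2.59). *EFEMP1* and *ECM2*, which code for matrix proteins, stood at 20.2 against 94.2 CPM (-2.17) and at 19.9 against 92.5 CPM (-2.16). *RBP4*, the carrier of retinol, stood at 187 against 675 CPM (-1.85) and *HMOX1*, the haem-degrading stress enzyme, at 78.4 against 255 CPM (-1.69). *INPP4B*, *EHD3* and *DDX10* had ratios of -2.15, -2.09 and -1.63. Of these 8 genes 0 were past 2-fold in the 322 cells.

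Cells of other kinds were looked for among the 322 cells. Of the 18 pluripotency genes listed, the sum was 75 CPM in the 322 cells, 72 CPM in the 79, 62.1 CPM in the other cells and 3085 CPM in cyiPSC. *NANOG* was read in 0 of the 79 cells and *LIN28A* in 3. At equal reads the highest sum of pluripotency genes in any cell with 5 or more rule genes was 581.3 CPM, below the 1st percentile of cyiPSC at 968.8 CPM. All 322 cells held reads of the EGFP reporter transcript, as did every other pre-transplant cell. The summed levels of the 11 immune genes listed were 11.5, 12.4 and 10.1 CPM in the 322, the 79 and the other cells, those of 9 muscle genes were 27.9, 17.7 and 26.7 CPM and those of 13 neural genes 297, 299 and 253 CPM. For the 9 endothelial genes they were 85.9, 80.8 and 74.9 CPM, nearly all from *ERG*, which chondrocytes also express, and *KDR* and *TEK* were at 0 in the 79 cells. The median share of mitochondrial reads was 5.55% in the 322 cells, 5.26% in the 79 and 5.45% in the other cells, and at equal reads the median number of genes per cell was 3747, 3821 and 3342.

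The 79 cells were not uniform in these genes. Cells with 7 or 8 rule genes (42 cells) were set against those with 5 or 6 (37 cells), over 6038 genes, of which 297 (4.92%) were 2-fold higher and 160 (2.65%) lower. Of the measured spindle genes 23 of 33 were higher with 7 or 8 (median log2 ratio 1.82) and 17 of 32 kinetochore genes were (1.24), and of the replication genes 0 of 51 were higher and 10 lower (-0.57). The rule is made mostly of mitotic genes, so cells with more of them were placed towards mitosis by the choice itself.

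Among the named genes past 2-fold *HMMR*, a spindle-associated protein, had the highest ratio, at 141 CPM with 7 or 8 rule genes and 14.7 CPM with 5 or 6 (3.17). *AURKA*, a kinase of the spindle poles, stood at 51.9 and 5.29 CPM (3.07), *PLK1* at 131 and 13.9 CPM (3.14), *CENPA*, the histone of the centromere, at 70.6 and 7.23 CPM (3.12) and *CCNB2* at 269 and 38.4 CPM (2.77). *CCNA2* stood at 370 and 107 CPM (1.79). In the other direction *MCM5* stood at 38.4 and 136 CPM (-1.79), *DTL*, which clears replication licensing factors, at 22.8 and 80.7 CPM (-1.78), and *MCM2* and *MCM4* had ratios of -1.24 and -1.34. *RRM2* and *PCNA* differed by less, at 602 and 905 CPM and at 348 and 618 CPM.

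Single cells at equal reads were then placed by the sums of 71 mitotic and 62 S phase genes outside the rule. As limits the 99th percentiles of the cells without a rule gene were used, 1580 CPM for the mitotic and 2680 CPM for the S phase sum. Of the 72 cells with 5 or more rule genes, 23 lay above the mitotic limit only, 2 above the S phase limit only, 46 above both and 1 above neither. Of 33 cells with 5 or 6 rule genes 26 lay above both, and of 39 with 7 or 8 the cells above the mitotic limit only (18) and above both (20) were nearly equal in number. Of these 39 cells 7 lay within 10% of the S phase limit, so this split depends on where it is set. The medians were 3520 CPM mitotic and 6685 CPM S phase with 5 or 6 rule genes, and 12045 and 2906 CPM with 7 or 8.

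Of 194 cells with exactly 3 rule genes, 153 lay above neither limit and 21.1% above either, against 57.4% of the 47 cells with 4 and 3.88% of the 2861 cells with fewer than 3. Some cells outside the rule therefore lay high as well, 41 above the mitotic limit only, 41 above the S phase limit only and 29 above both. The limits leave a small share of the cells without a rule gene above them by choice, here 1.98% of 1109 cells above either. The sums are continuous, and 7 of the 72 cells with 5 or more rule genes lay within 10% of the S phase limit and 1 within 10% of the mitotic limit, as did 9 and 13 of the 194 cells with exactly 3.

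**Figure D4:**
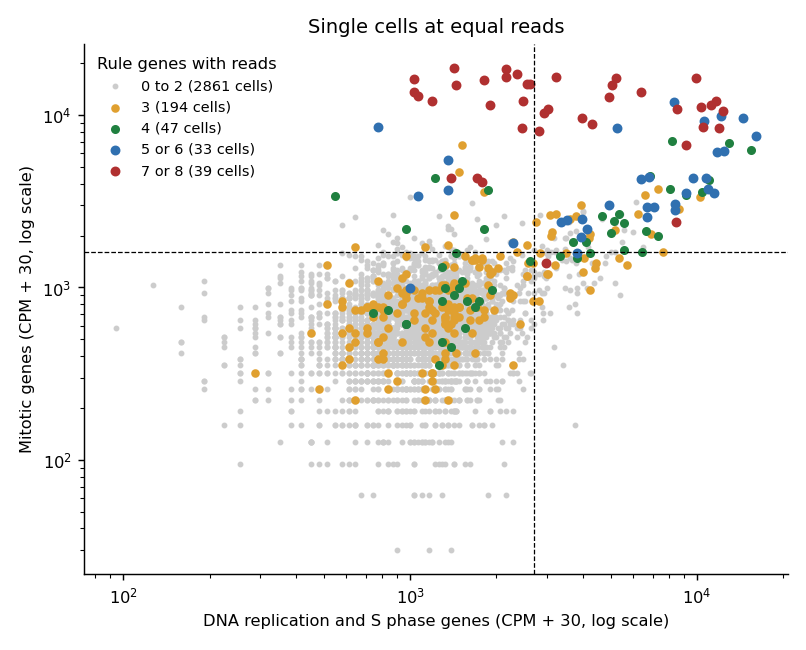
Each point is a pre-transplant cell thinned to 30967 reads, by the summed CPM + 30 of S phase genes (x, log axis) and mitotic genes (y, log axis), coloured by the number of rule genes with reads; dashed lines mark the 99th percentiles of cells without a rule gene. Cells with 5 or 6 rule genes lie mostly at the upper right and cells with 7 or 8 along the top, and 153 of 194 cells with 3 lie among the other cells at the lower left.

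Likeness over the whole transcriptome was described by nearest neighbours, 20 per cell, among cells at equal reads and without the rule genes. For cells with 5 or more rule genes, 54.9% of the neighbours were cells of the same kind, which make up 2.27% of the cells. When the 218 listed genes of the cell cycle and its inhibitors, rule genes among them, were left out, 36.2% still were. For cells with exactly 3 rule genes the share was 9.69%, and 9.43% without the listed genes, against 6.11% of the cells. The 72 cells placed, of the 79, thus lay close to each other also by genes outside the lists, and for the cells with exactly 3 the share was nearer to their share of all cells. Cell cycle regulated genes outside the lists, such as *DEPDC1*, were not left out. The share of 36.2% therefore does not show a likeness beyond the cell cycle.

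The same rule was applied to the other samples. It took 2457 of 2500 cyiPSC (98.3%, interval 97.7 to 98.8%), 4 of 320 cells of post-transplant cyiPS-Cart (1.25%, 0.342 to 3.17%), 1 of 320 cells of cyAC (0.312%, 0.00791 to 1.73%) and 5 of 320 cells of cyFT (1.56%, 0.509 to 3.61%). At 5 or more rule genes the shares were 94.4% in cyiPSC, 2.24% in pre-transplant cyiPS-Cart, 0.312% in post-transplant cyiPS-Cart and 1.25% in cyFT, and 0 of 320 cells in cyAC, which allows a share of up to 0.938%. Median depth was 143075, 59249, 80335.5, 29699 and 27499.5 reads in cyiPSC, pre-transplant, post-transplant, cyAC and cyFT cells. The bar of 1 read may not be equal across libraries. The lowest *TOP2A* count above 0 was 8 reads in the organoids, whereas in cyAC 8 cells held *TOP2A* reads at a summed 0.846 CPM. For *UBE2C* it was 7 reads in the organoids, and 9 post-transplant cells held reads at a summed 0.569 CPM. Thinning does not remove such floors, and their effect on the shares was not tested.

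With every cell thinned to 12191 reads, the shares with at least 3 rule genes were 96.9% in cyiPSC, 3.47% (2.89 to 4.13%) in pre-transplant cyiPS-Cart, 0.312% (0.00791 to 1.73%) in post-transplant cyiPS-Cart, 0 of 308 cells in cyAC, which allows up to 0.974%, and 1.74% (0.566 to 4%) in cyFT. These intervals cover the counting of cells within a library and test no difference between samples. At 5 or more rule genes the thinned pre-transplant share of 1.65% (1.25 to 2.13%) stood beside 0 of 320 post-transplant cells, which allows up to 0.938%, and 1.04% (0.215 to 3.01%) of cyFT cells. The organoids shared a library with cyiPSC, and cyAC with cyFT, while between these libraries and that of post-transplant cyiPS-Cart, library and sample cannot be told apart in these shares. All samples other than cyiPSC and pre-transplant cyiPS-Cart came from a matrix reduced to 320 cells each.

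**Figure D5:**
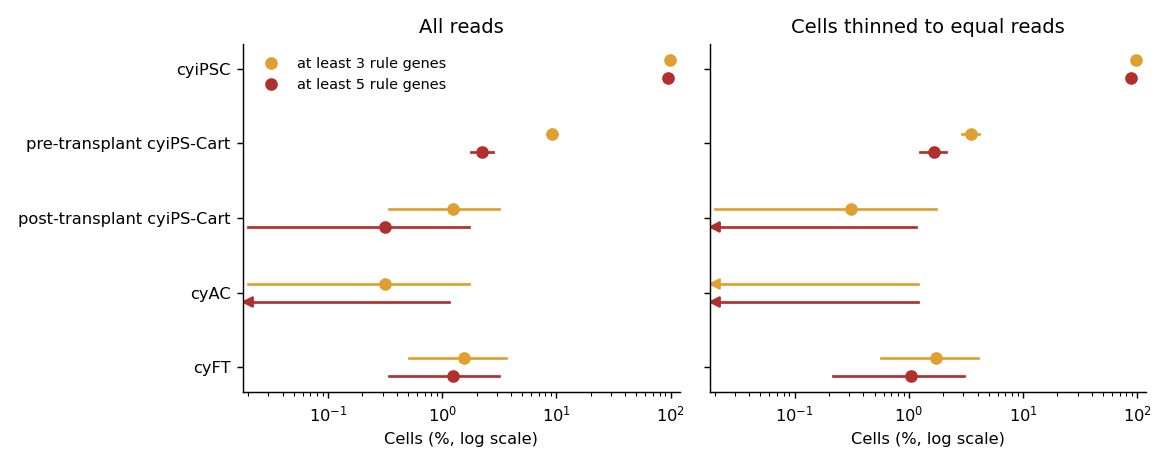
Share of cells with at least 3 (yellow) and at least 5 (red) rule genes in the 5 samples, in % on a log axis, with 95% exact binomial intervals, for all reads (left) and for cells thinned to 12191 reads (right). A left-pointing triangle at the axis edge stands for 0 cells, and lower bounds under 0.02% are drawn at 0.02%. cyiPSC lie above 87% throughout, and pre-transplant cyiPS-Cart lies at 9.13% and 2.24% in all reads and at 3.47% and 1.65% after thinning.

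The few cells taken in the other samples were looked at one by one. In cyFT 4 of the 5 cells held 5 to 8 rule genes, and their mitotic sums were 23410, 14681, 17029 and 3588 CPM, against a median of 570.6 CPM over all cyFT cells. The fifth, with 3 rule genes, had 4666 CPM, so all 5 stood high. In post-transplant cyiPS-Cart the cell with 5 rule genes had 3062 CPM, and the other 3, with 3 rule genes each, had 672, 361.7 and 470.5 CPM, against a median of 370.9 CPM. Their S phase sums were 5325 CPM in the cell with 5 rule genes and 3556, 2402 and 1189 CPM in the others in the same order, against a median of 856.5 CPM. The cell of cyAC had 4 rule genes and 982.9 CPM, with a median of 604.7 CPM in that sample. Its S phase sum was 538.3 CPM, below the median of 871.2 CPM there. Of the 99 genes higher in the 322 organoid cells, 92 were also at least 2-fold higher in the 5 cyFT cells than in the other cyFT cells, where 19.2% of the same 5698 genes were. These 5 cells were taken by the same rule genes, so the 92 were favoured by the choice of cells and are a description.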

How the data were processed

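Single-cell transcriptomes were made by TAS-Seq on bead-captured cells. Per the study's methods and the submitters' processing notes, reads were trimmed with cutadapt 3.4 and mapped with Bowtie2 2.4.2 to the Ensembl transcripts of *Macaca fascicularis* 6.0, and cells were called by their reads in R 3.6.3, assigned by hashtag and later filtered by mitochondrial share. The authors deposited tables of read counts per gene and cell. No step that counts molecules is described, so duplicate reads of 1 molecule may not have been separated. A background correction by the authors set low counts of genes with a maximum log2(count + 1) above 8 to 0, which bears on the lowest count each gene can show.

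Pre-transplant cyiPS-Cart and cyiPSC were read from a matrix of 13950 genes and 6027 cells, and the other 3 samples from a matrix reduced to 320 cells per sample. Cells were assigned to samples by the prefix of their names, and 0 columns were left without a sample. The libraries shared 2 and 4 cell barcodes with the organoid library and 0 with each other. Doublets were called with scrublet in scanpy 1.11.5, which marked 0.232% of cells, 0 of them from the organoids, and was not taken to have worked, so no cell was removed and leaving out marked cells could change nothing.

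Counts were summed over cells, scaled to CPM and compared as log2(CPM + 1). A gene was measured where it reached 20 CPM and was detected in 25% or more of the cells on either side, and it was past 2-fold when its log2 ratio reached 1 in all reads and with every cell thinned to 30967 reads, the 10th percentile. Each condition being 1 sample, nothing was tested. Intervals are 95% exact Poisson or binomial ones and cover counting error only, and reads amplified by PCR are not independent molecules. Shares of 0 are given with the limit that 3 counts allow. Neighbours were found on 30 principal components of 2000 variable genes (scikit-learn 1.9.0). Gene symbols are those of the matrices, and 94.9% of them are in RefSeq's gene table for the species.

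The members and the gene lists were chosen with earlier results of these data known. Named are the 20 genes with the highest and 10 with the lowest ratios past 2-fold, up to 5 genes per list by level, listed genes past 2-fold, the rule genes and *COL1A1*, *PRG4*, *COL2A1*, *ACAN*, the EGFP transcript, *NANOG* and *LIN28A*, and any other gene is said to be named after its value was seen. Alternatives covered depth, the rule, comparison cells, scaling (with TMM of edgeR 4.0.16), pseudocount, filters and cell make-up. The hashtag libraries were not used here.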

Additional observations from a re-analysis of the deposited data

How the results depend on the processing

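The 77 named genes past 2-fold in the 322 cells had the same direction under every alternative run on them. Genes past 2-fold in the 79 cells only did not all keep theirs in the cells with exactly 3 rule genes, where *ASPM* had a log2 ratio of -0.16, *INPP4B* of 0.20, *EHD3* of 0.13 and *DDX10* of 0.18, and *GAS2L3*, *AURKA*, *KIF4A*, *ACTA2*, *NDRG1* and *EGR2* also turned. The share of pre-transplant cells taken, 9.13%, was 25.9% with at least 2 rule genes and 3.57% with at least 4, 5.27% with at least 2 reads per gene and 2.32% with at least 10, 5.8% with thinned reads, 5.27% without *MKI67*, 8% without *TOP2A* and 4.68% without *TPX2* or without *MAD2L1*. Alternatives chosen after seeing the data gave 2.24% (at least 5 rule genes) and 1.84% (at least 3 of the 5 genes without low counts). For cyiPSC (98.3%) the share was 99%, 96.8%, 94.7% and 96.9% with at least 2 genes, at least 4 genes, at least 10 reads and thinned reads. For post-transplant cyiPS-Cart (1.25%) it was 6.88% with at least 2 genes and 0.312% with at least 4 genes, 2 or 10 reads, or thinned reads. For cyAC (0.312%) it was 5.31% with at least 2 genes and 0% with 2 or 10 reads or thinned reads, and for cyFT (1.56%) 7.81% with at least 2 genes. Genes higher in the 322 cells numbered 99, and 175 when the rule was applied to thinned reads, 207 without a filter, 15 at 100 CPM or more, 21 with at least 2 and 241 with at least 4 rule genes. The choices made after seeing the data gave 348 with at least 5 rule genes, 393 with 3 of 5 genes and 3 with exactly 3. With cells limited to those with *COL2A1* and without *COL1A1* reads, 84 genes were higher, of which 81 were shared. Lower genes numbered 0, and 5 with the rule on thinned reads, 1 with other cells of like depth, with other cells without rule genes, with mean CPM, with stricter cells or with exactly 3 rule genes, 10 without a filter, 18 with at least 4 rule genes, 56 with at least 5 and 79 with 3 of 5 genes. In the 79 cells the 348 higher genes were 620 without a filter and 111 at 100 CPM or more. The 56 lower genes were 118 with the rule on thinned reads, 27 with a pseudocount of 10, 311 without a filter, 13 at 100 CPM or more, 120 in cells with *COL2A1* and without *COL1A1* reads, 92 in cells with 5 or 6 and 143 in cells with 7 or 8 rule genes. Lists with a median log2 ratio of at least 1 numbered 3, and 5 with the rule on thinned reads, with at least 4 or 5 rule genes and with 3 of 5 genes, and 0 with at least 2 or exactly 3. For these changes the cause was not tested.

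No paired analysis was possible because each condition was 1 sample and no test was run. The number of cells limits the values for the 79 cells, where 1 cell is over 1% of the set and lower genes of low level rest on few reads. The organoid cells came from 1 line and 1 library, so variation between cultures was not measured. CPM are shares of a cell's reads and do not give total RNA. The cells at the edge of the rule depend on single reads of *MKI67*, *TPX2* and *MAD2L1* and on depth, and the shares of the other samples rest on 0 to 5 cells each outside cyiPSC.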
